A study of Mus musculus with 2 samples.

Results

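The cytosolic ribosomal proteins are the protein parts of the large and the small subunit of the ribosome that translates nuclear-encoded mRNAs, and their genes were followed here in mouse iPSCs (induced pluripotent stem cells, made by reprogramming somatic cells). Members were the genes whose single platform symbol begins with Rpl or Rps and a digit, or is Rpsa, Rplp0, Rplp1 or Rplp2, leaving out the Rps6k kinases, pseudogenes and symbols ending in l or l1. The rule took 42 of 12393 genes on the array, 22 of the large and 20 of the small subunit, measured on 91 of 20380 probe sets with a single gene. Rplp1 had no probe set of its own. A further 29 symbols that fit the rule occurred only on probe sets listing several genes and were not counted as members.

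Both groups were iPSCs kept in mouse embryonic stem cell medium containing serum and 2i, inhibitors of the MEK and GSK3 kinases under which such cells stay naive. The first was a hybridized sample and the second a live sample, with 1 array each. What was hybridized to the cells, how they were prepared, and from which line or how many cultures they came is not in the labels. Values are log2 GCRMA values, and each difference is hybridized minus live. With 1 array per group no test is possible and no value has a replicate error, so every difference describes these 2 arrays, and their number limits the precision. A gene was represented by its brightest probe set, that of the highest mean over both arrays, and a mean of at least 5 was required. All 8 pluripotency markers reached that level, with 5 below 0 and 3 above, from Pou5f1 at 10.83 in hybridized and 11.53 in live cells to Nanog at 13.17 and 13.03. Of 7 fibroblast markers only Col1a1 reached it, at 4.46 in the hybridized and 6.17 in the live sample. Of 3 neural markers Tubb3 did, at 8.14 and 9.67 in the same order, and of 4 trophectoderm markers Krt8, at 8.40 and 9.88, and Krt18, at 8.01 and 7.30, while none of 4 endoderm markers did. Col1a1, Tubb3 and Krt8 were thus 2-fold lower or more as deposited, and the part of other cells in the results was not tested.

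A ribosome needs nearly all of its proteins in equal numbers, and their mRNAs are among the most abundant of growing cells. Most of these mRNAs begin with a run of pyrimidines, the 5′ terminal oligopyrimidine (TOP) element, through which mTOR and the RNA-binding protein Larp1 adjust their translation together.

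Ribosomal protein genes lay slightly lower in the hybridized sample as deposited, and no member was 2-fold apart on that scale. The balance of 5′ and 3′ signal also differed between the arrays: on control probe sets at the 5′ and 3′ ends of the Actb and Gapdh mRNAs, the 5′ value gained 2.52 and 1.81 on the 3′ value in the hybridized sample, relative to the live one, and the part of this in the shift was not tested. In such bulk samples fewer cells of a type and less RNA per cell cannot be told apart. Of 42 members, 39 reached the level of 5 and 37 had a mean of at least 11. Of the 39, 30 were below 0 and 9 above, with a median difference of -0.37, quartiles of -0.515 and -0.06 and a range from -0.86 to 0.55. Over all 7262 genes at the level, 58.5% were below 0 and the median was -0.165; over the 1521 genes with a mean of at least 11, 55.0% were below 0 and the median was -0.06. Reading the members against genes of their own level, 29 of the 37 bright members (78.4%) were below 0. At a limit of 1.5-fold, 8 of 39 were lower and 0 higher, where 29.9% of all genes were lower and 17.5% higher, and 15.3% of the genes with a mean of at least 11 were lower and 11.2% higher. At 2-fold, 23.8% of all genes and 6.31% of those with a mean of at least 11 were apart in either direction, and 0 of 39 members were.

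The spread among members was narrower than that of all genes and, from a mean of 13 only, close to that of equally bright genes. The SD of the difference was 0.33 over the 39 members, 0.53 over genes with a mean of at least 11 and 0.86 over all genes at the level. For means from 12 to under 13 it was 0.26 over 14 members and 0.44 over all 492 genes. From a mean of 13 it was 0.30 over 17 members and 0.31 over all 102 genes, members included. Within the band of means from 12 to under 13, 13 of 14 members were below 0 with a median of -0.40, beside 58.3% below 0 and a median of -0.085 for the 492 genes of that band. From a mean of 13, 13 of 17 members (76.5%) were below 0 with a median of -0.36, beside 65.7% and a median of -0.12 for those 102 genes.

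**Figure D1:**
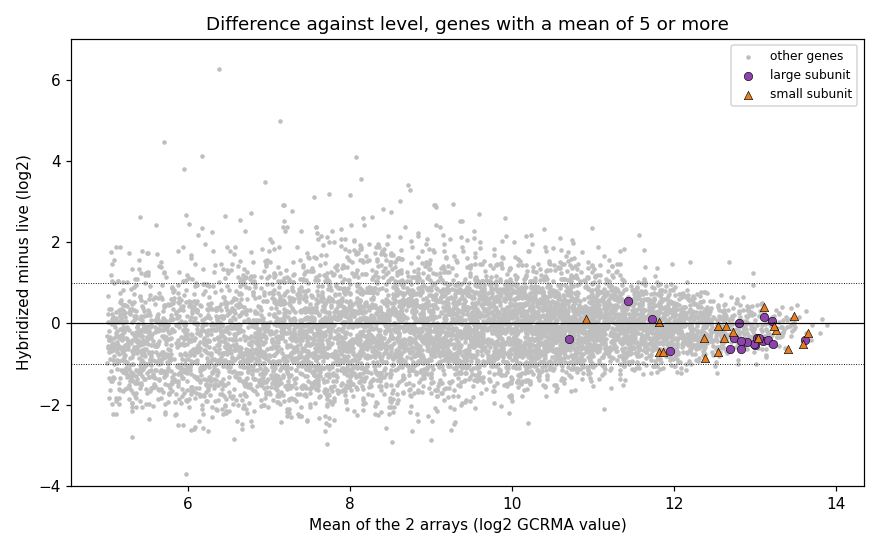
The difference between the hybridized and the live array (log2, vertical axis) against the mean of both arrays (log2 GCRMA value, horizontal axis) for 7262 genes with a mean of 5 or more; grey points are other genes, circles the 20 large subunit and triangles the 19 small subunit genes, and dotted lines mark 2-fold. Ribosomal protein genes sit at the bright end, between -0.86 and 0.55, with a median of -0.37 as deposited that becomes 0.43 when centred on the hybridization controls.

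The sign of this shift rests on the centring. Its place relative to other genes cannot change under the 2 centrings, which add the same value to every difference. Only loess and quantile normalization could change that place. The 18 hybridization controls, labelled transcripts that are added to the mixture put on the array, differed by a median of -0.80, with values from -1.22 to -0.15. These differences varied with level. The dimmest controls, named BioB, differed by -1.22 to -0.80. Those with a mean of at least 11, as most members have, differed by -0.81 to -0.15. Centring on the brighter ones alone was not done, and a smaller shift can leave more members below 0. Centred on the median of all 18, the median of the members was 0.43 and that of all genes 0.635. There 1 of 39 members was below 0, beside 21.3% of all genes and 6.77% of those with a mean of at least 11, and 2 members (5.13%) were 2-fold higher, beside 31.8% and 30.2%. Centred on the median gene, which adds 0.165 to each difference, the members had a median of -0.205 with 27 of 39 (69.2%) below 0, beside 3631 of all 7262 genes and 42.5% of those with a mean of at least 11. A loess correction on level gave a median of -0.25 and quantile normalization -0.21, each again with 27 members below 0. The shares beside them were 3632 of all 7262 genes and 49.5% of bright ones after loess, and 58.1% and 51.0% after quantile normalization. The median of genes with a mean of at least 11 was 0.0077 after loess and -0.02 after quantile normalization, and the members' median lay under it in both. Over all genes the median was -0.0003 after loess, which like median centring brings it close to 0 by construction. The counts of 3631 and 3632 of 7262 genes follow from this and are no result. After quantile normalization it was -0.165, so the members' median of -0.21 lay only slightly lower there. Under the 2 centrings the order is that of the deposited values by construction.

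The member furthest below the live sample was Rpsa, a small subunit protein also known as the laminin receptor, which read 11.96 in the hybridized and 12.82 in the live sample, a difference of -0.86. Its value is the only one of the named members called lower that stayed below 0, at -0.06, when centred on the hybridization controls. Next came Rps26, which lies near the mRNA exit of the small subunit, at 11.51 in the hybridized and 12.22 in the live sample. Rps2, a protein of the small subunit's mRNA entry, read 11.47 in the hybridized and 12.17 in the live sample. These 3 genes, each measured on 1 probe set at the level, were lower by more than 1.5-fold as deposited, and Rps26 and Rps2 turned to 0.09 and 0.10 under the control centring.

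Rps7 read 12.20 in the hybridized and 12.90 in the live sample on its brightest probe set, but its second probe set was nearly level at 11.81 and 11.83. Rpl41, the shortest ribosomal protein, read 11.61 in the hybridized and 12.30 in the live sample. Its other probe sets gave the same direction, and its 4 differences kept within -0.80 and -0.62. The acidic stalk, the flexible arm of the large subunit that recruits translation factors, was represented by Rplp0 and Rplp2. Rplp2 read 12.37 in the hybridized and 13.01 in the live sample, a difference of -0.64, and Rplp0, the base of the stalk, read 12.88 and 13.23 in the same order, a difference of -0.35. The remaining members past 1.5-fold were Rps28, at 13.09 in the hybridized and 13.73 in the live sample, and Rpl27a, at 12.52 and 13.14; both were chosen after their values were seen. All of these except Rpsa turned positive when centred on the median of all 18 hybridization controls, dim and bright. Controls with a mean of at least 11 differed by -0.81 to -0.15, and the direction when centred on those alone was not tested.

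At the other end stood members of both subunits. Rpl14, of the large subunit, read 11.71 in the hybridized and 11.16 in the live sample, the highest difference at 0.55. Rps9, of the small subunit, followed with 13.31 in the hybridized and 12.92 in the live sample. Rps14, whose human counterpart is lost in the 5q- syndrome, read 13.58 and 13.40 in the hybridized and the live sample. Rpl22, an RNA-binding member of the large subunit, read 11.78 in the hybridized and 11.68 in the live sample, and its second probe set was on the other side of 0, at 9.96 and 10.16. For Rps14 the second probe set pointed the other way with -0.54, and the mean of both was -0.18. For Rps9 a plain probe set gave -0.50 and the mean of its 3 probe sets was 0.013, so of these 4 genes only Rpl14, on its sole probe set, had no value on the other side of 0. Rpl11, which binds Mdm2 and so links ribosome assembly to p53, was 0.16 higher, with 13.19 in the hybridized and 13.03 in the live sample. Rps6, the substrate of the S6 kinases, read 10.96 in the hybridized and 10.86 in the live sample. None of these 6 differences reached 1.5-fold as deposited.

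The stretch around the annotated transcript start is shown for members at both ends of the range, because the TOP element would lie there. RefSeq promoters (GRCm38.p6) were matched for 37 of 42 members by gene ID. Each sequence gives 20 bases before and 20 bases from the start onward on the gene's strand. Capitals mark the first of the longest runs of C or T, and for a gene with several starts the start with the longest run was taken. The 6 lowest members come first and then the 6 highest, both taken among members with an entry. Members on a single chromosome were also left out of this choice. Rps14, whose difference of 0.18 is among the 6 highest, is not shown, and Rpl4, at 0.06, is shown instead.
Rpsa, chr9:120127746-120127785, plus strand: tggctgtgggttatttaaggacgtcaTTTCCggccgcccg
Rps26, chr10:128626487-128626526, minus strand: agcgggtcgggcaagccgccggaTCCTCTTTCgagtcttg
Rps2, chr17:24720043-24720082, plus strand: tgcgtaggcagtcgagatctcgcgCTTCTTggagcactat
Rps7, chr12:28635934-28635973, minus strand: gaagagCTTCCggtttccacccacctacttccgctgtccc
Rpl41, chr10:128549149-128549188, minus strand: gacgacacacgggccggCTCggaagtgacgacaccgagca
Rplp2, chr7:141447631-141447670, plus strand: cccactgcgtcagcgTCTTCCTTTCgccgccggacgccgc
Rpl4, chr9:64173367-64173406, plus strand: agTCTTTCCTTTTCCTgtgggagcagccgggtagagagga
Rpl22, chr4:152324416-152324455, plus strand: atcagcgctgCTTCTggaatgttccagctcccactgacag
Rps6, chr4:86857348-86857387, minus strand: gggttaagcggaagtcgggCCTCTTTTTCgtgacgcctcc
Rpl11, chr4:136053374-136053413, minus strand: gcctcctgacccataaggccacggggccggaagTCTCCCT
Rps9, chr7:3704021-3704060, plus strand: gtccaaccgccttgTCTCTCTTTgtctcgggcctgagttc
Rpl14, chr9:120571497-120571536, plus strand: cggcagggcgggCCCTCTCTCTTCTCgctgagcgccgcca

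A run of 8 or more C or T within these 40 bases was present in 18 of 37 members (48.6%), against 18.4% of 27025 genes with a promoter. It stood in 2 of the 6 lowest and 4 of the 6 highest sequences shown. Members with such a run had a median difference of -0.265 (n = 16 at the level) and those without one -0.375 (n = 18). Among other genes with a mean of at least 11 the medians were -0.09 with a run (n = 251) and -0.07 without (n = 971), so the run did not go with one direction in both sets. The letters CCGGAAG, the core bound by ETS factors, and the motifs below were searched on both strands of the 300 bases at every annotated start of a gene. CCGGAAG was found in 19 of 37 members (51.4%) and in 9.93% of all genes, or 23.0% of the other array genes at the level. All 6 of the lowest genes shown have that motif at any of their annotated starts, not necessarily the start shown, and 2 of the 6 highest shown do. Over all matched members at the level the medians were -0.47 with it (n = 17) and -0.36 without it (n = 17), and among other genes with a mean of at least 11 they were -0.09 (n = 289) and -0.06 (n = 933). AANATGGC, part of the YY1 motif, was found in 13.5% of members, 6.96% of all genes and 11.6% of the other array genes at the level. GGGCGG, the SP1 core, was found in 56.8% of members, 38.2% of all genes and 72.6% of the other array genes at the level. A match describes these letters in this window and is no evidence of binding.

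The differences of the large and the small subunit genes overlapped over most of their range. The 20 large subunit genes at the level had a median of -0.41 and ran from -0.69 to 0.55, with 15 below 0 and 3 lower by 1.5-fold. The 19 small subunit genes had a median of -0.23 and ran from -0.86 to 0.39, with 15 below 0 and 5 lower by 1.5-fold. The means lay closer together than the medians, at -0.31 for the large and -0.28 for the small subunit, with SDs of 0.32 and 0.35. The gap between medians, large minus small, was -0.18. It was 0.005 without _x_at and _s_at probe sets and 0.235 on the second brightest probe sets of 17 members, so its sign rests on which probe set stands for a gene.

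In the large subunit 12 genes lay between -0.54 and -0.35 on their brightest probe sets. This band was set after the values were seen, and the share of all genes in it was not counted. It is not particular to the large subunit, since Rps15 (-0.36), Rps19 (-0.37), Rps29 (-0.52) and Rps4x (-0.35) lay in it as well. The large subunit genes in it included Rpl13a, a frequent reference gene, at 12.73 in the hybridized and 13.27 in the live sample, and Rpl38, which in mice is needed for translation of a group of Hox mRNAs, at 12.74 and 13.24. Rpl4 and Rpl7 were nearly level, with differences of 0.06 and 0.02. Which genes fall in the band depends on the probe set taken. The 4 probe sets of Rpl13a ran from -0.67 to -0.06, and the second brightest of Rpl7 gave -0.42. In the small subunit Rps19, whose human counterpart is mutated in Diamond-Blackfan anaemia, read 12.19 in the hybridized and 12.56 in the live sample, Rps4x, the X-linked form of a small subunit protein, 12.45 and 12.80, and Rps24 13.21 and 13.28. Rps3a1 and Rps18 differed by -0.06 each and Rps25 by 0.04. These examples were chosen after their values were seen. All differences named here that are below 0 turned positive when centred on the median of all 18 hybridization controls, dim and bright.

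**Figure D2:**
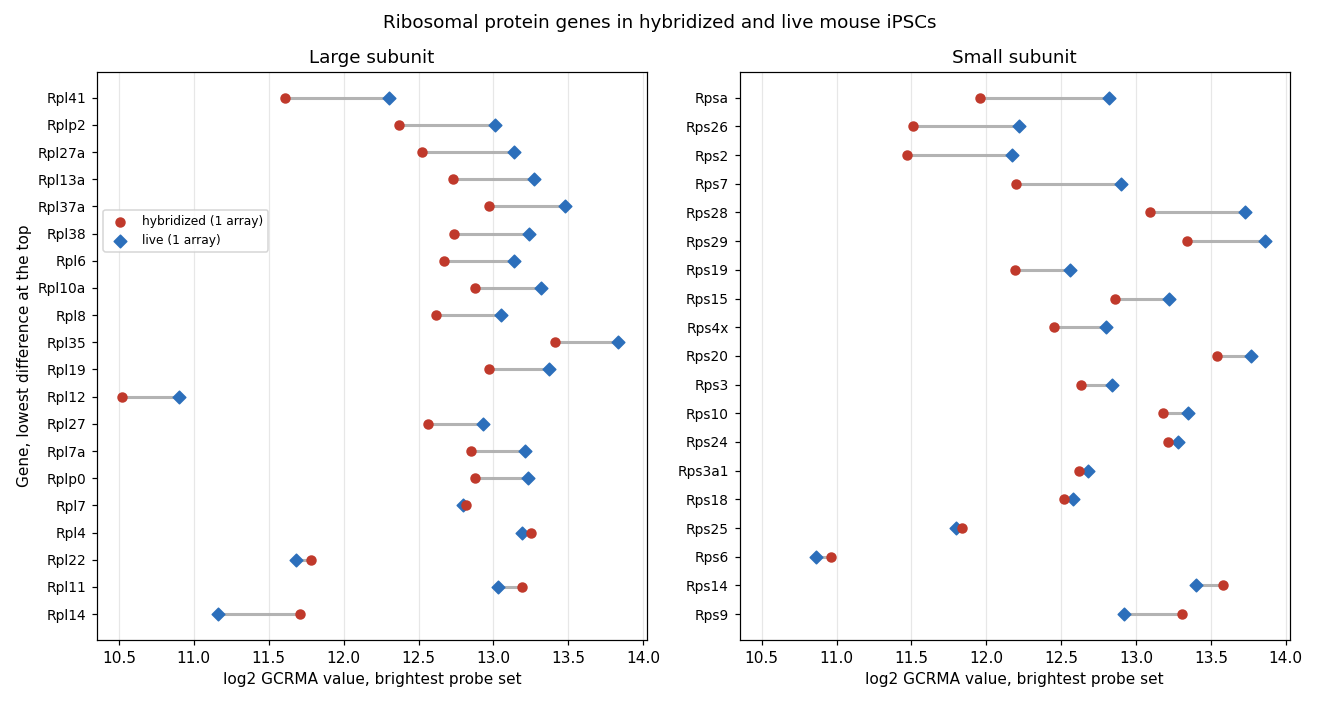
Log2 GCRMA value of the brightest probe set (horizontal axis) in the hybridized array (circles) and the live array (diamonds) for the 39 ribosomal protein genes with a mean of 5 or more, by subunit, with the lowest difference at the top; there are no error bars because each group is 1 array. In 15 of 20 large subunit and 15 of 19 small subunit genes the hybridized value lies left of the live value as deposited, and in 0 and 1 when centred on the hybridization controls.

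Values at the ends of the level range are each those of the gene's brightest probe set and are not comparable between genes. The members with the highest means were Rps20, at 13.54 in the hybridized and 13.77 in the live sample, Rpl35, at 13.41 and 13.83, and Rps29, at 13.34 and 13.86. Rpl35 ran from -0.60 to 0.08 over 6 probe sets. The one at 0.08, nearly as bright, read 13.54 in the hybridized and 13.46 in the live sample. Among members at the level the lowest means belonged to Rpl12, at 10.52 in the hybridized and 10.90 in the live sample, and to Rps6 and Rpl14. Rpl37, Rps27 and Rpl39 were under the level on their only probe set with a single gene. They read 3.85, 4.52 and 3.57 in the hybridized sample and 4.25, 4.29 and 3.37 in the live sample, where values have no order.

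Repeated measurements of the same gene were available for 17 members with more than 1 probe set at the level. In 7 of these genes every probe set was below 0, in 0 every one was above, and in 10 they fell on both sides. The same counts over all 2720 genes with more than 1 probe set at the level were not made. Whether these counts are particular to the members was thus not tested. The SD of the gap between the brightest and the second brightest probe set, divided by the square root of 2, was 0.27 for these members, 0.63 for genes with a mean of at least 11 and 0.73 for all genes. It covers the spread between probe sets within the arrays and no spread between samples or preparations. The median member differed by -0.37, and the 2 probe sets correlated over the 17 members with r = 0.21, beside 0.39 over all 2720 genes with more than 1 probe set at the level, both given as a description of values that share both arrays.

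Rps18 had the widest range, from -0.62 to 1.68 over 6 probe sets. Its 3 bright suffixed probe sets differed by -0.06, -0.62 and -0.34. A dimmer plain one went the same way, at 7.64 in the hybridized and 8.02 in the live sample. The 2 dimmest read 6.42 and 6.29 in the hybridized and 4.74 and 4.93 in the live sample. Rps20 ran from -0.72 to 0.82 over 4 probe sets. There the higher one read 9.56 in the hybridized and 8.74 in the live sample, well under the gene's brightest. In both genes the high differences were confined to probe sets with means under 11. Rps29 was below 0 on all 3 of its probe sets, with -0.52, -0.66 and, at 10.75 in the hybridized and 11.99 in the live sample, -1.24. That last value was the only one of 83 member probe sets at the level that was at least 2-fold lower, and 2 of the 83, both of Rps18, were at least 2-fold higher, where 12.8% and 13.1% of all named probe sets at the level were lower and higher. Rps28 was also steady, with -0.77, -0.64 and -0.64. Rps24, by contrast, kept between -0.10 and 0.14 on 5 probe sets.

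**Figure D3:**
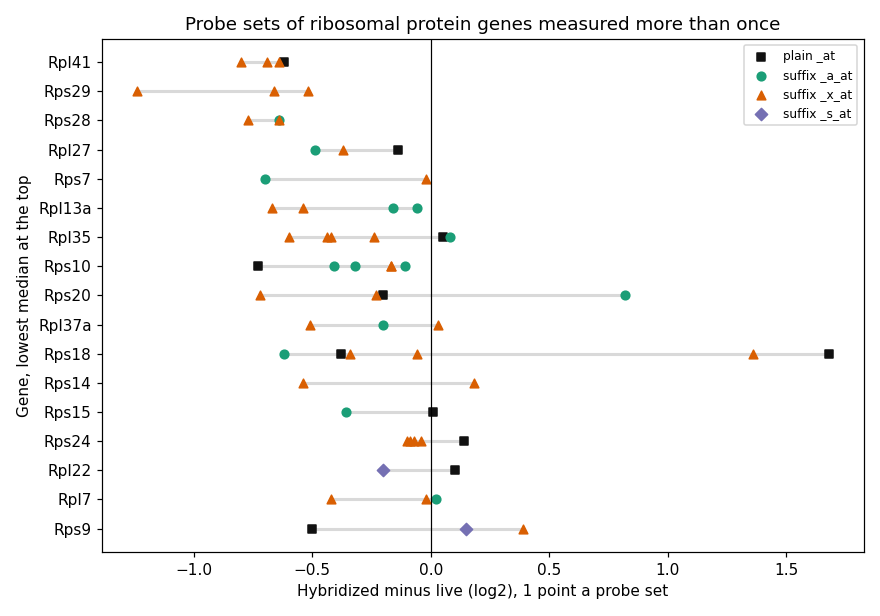
Differences between the hybridized and the live array (log2, horizontal axis) for each probe set with a mean of 5 or more of the 17 ribosomal protein genes measured more than once, 1 row a gene and 1 point a probe set; squares are plain _at probe sets and other symbols carry a suffix. Rpl41, Rps28 and Rps29 lie below 0 on every probe set as deposited, whereas Rps18 runs from -0.62 to 1.68.

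Plain and suffixed probe sets gave different shifts as deposited. The gap between their medians, suffixed minus plain, was -0.16 at the level of 5 but -0.03 after loess on level or after quantile normalization and -0.045 with _a_at counted as plain. A plain _at probe set holds probes specific to a single transcript, while the suffix _a_at marks transcripts of the same gene and _s_at and _x_at mark probes shared with other genes or families, which for ribosomal proteins includes many processed pseudogenes. At the level 64 member probe sets carried a suffix and 19 were plain. The suffixed ones had a median of -0.36 with 54 below 0, and the plain ones a median of -0.20 with 11 below 0, where 58.0% of all suffixed and 50.4% of all plain probe sets were below 0. By kind, the 36 _x_at probe sets had a median of -0.42, the 26 _a_at ones -0.355 and the 2 _s_at ones -0.025. Suffixed probe sets were also brighter, with a median mean level of 12.675 beside 11.435 for plain ones.

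With a mean of at least 11, the 58 suffixed member probe sets had a median of -0.37 and the 11 plain ones -0.14. Probe sets of other genes at that level showed the same order, with medians of -0.16 for 1039 suffixed and 0.09 for 974 plain ones. The step from plain to suffixed was thus -0.23 for ribosomal proteins and -0.25 for other genes, and within each kind the members' median was lower than that of other genes. Within genes, 10 members had both kinds at the level, and the suffixed mean was the lower one in 7, with a median gap of -0.25 and a range from -0.565 to 0.77. Of 1471 other genes with both kinds, 60.0% had the suffixed mean lower, with a median gap of -0.185. The exceptions among the members were Rps9, Rps10 and Rps20. Whether the probes' position along the transcript went with the gap was not tested.

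**Figure D4:**
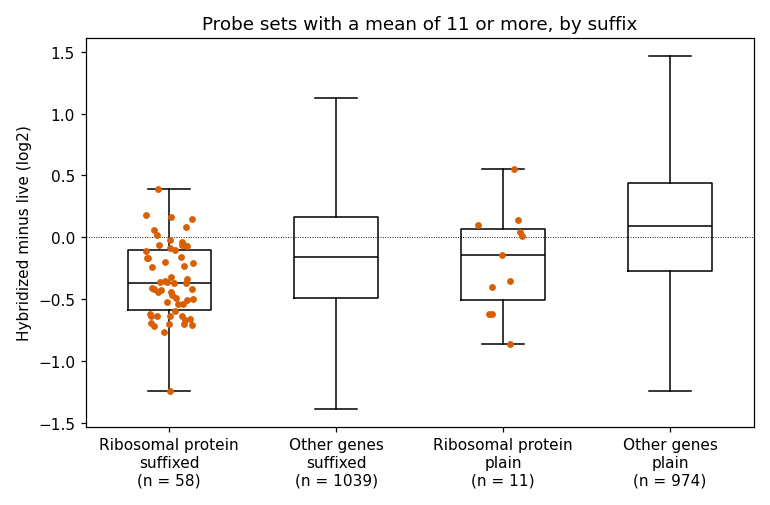
Differences between the hybridized and the live array (log2, vertical axis) for probe sets with a mean of 11 or more, by suffix and by whether the gene encodes a ribosomal protein; boxes give the quartiles and median, whiskers reach 1.5 times the box height at most, outliers of the boxes are not drawn, and points are the member probe sets. As deposited, the medians from left to right are -0.37, -0.16, -0.14 and 0.09; centring on the hybridization controls adds 0.80 to each.

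Relatives outside the rule and other genes of the translation system lay on both sides of 0 as deposited. Fau, which encodes a small subunit protein fused to a ubiquitin-like domain, read 11.99 in the hybridized and 12.39 in the live sample. Of 6 paralogs left out for their symbol, 5 reached the level, with a median of -0.12. Rpl22l1, the paralog that Rpl22 is known to hold down, was 0.47 higher at 13.31 in the hybridized and 12.84 in the live sample, and Rpl7l1 was 0.59 lower at 11.28 and 11.87. The paralog Rpl3l, known from striated muscle, was under the level on both arrays.

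Of 16 other TOP mRNAs listed, 13 were measured at the level, and their median was 0.02 with 6 below 0 and 7 above. Npm1, a nucleolar chaperone of ribosome assembly, was the only one 2-fold apart, at 13.60 in the hybridized and 12.36 in the live sample. The elongation factors differed in direction, with Eef1a1 at 12.01 in the hybridized and 12.74 in the live sample, Eef2 at 11.91 and 12.45, and Eef1b2 at 13.78 and 13.48. The difference between these TOP mRNAs and the ribosomal proteins was not tested. Of 15 listed regulators of ribosome supply, 12 were at the level, with a median of -0.335. A 2-fold limit was passed downward by 3 and upward by 0 of them, where 15.4% and 8.43% of all genes passed it. The 3 were Polr1a, the catalytic subunit of RNA polymerase I, at 7.89 in the hybridized and 9.33 in the live sample, Ubtf, a factor of rDNA transcription, at 9.85 and 11, and Myc, at 6.37 and 7.37. Larp1, the TOP-binding protein, was 0.45 higher at 11.83 in the hybridized and 11.38 in the live sample, and Mtor was 0.71 lower at 8.83 and 9.54. Centred on the hybridization controls, the medians were 0.82 for the TOP list and 0.465 for the regulators, with 4 of 13 TOP mRNAs and 3 of 12 regulators 2-fold higher, where 31.8% of all genes were, and none of either 2-fold lower, where 2.84% of all genes were.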

How the data were processed

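For 1 hybridized and 1 live sample, the authors deposited a table with a value for each probe set. GCRMA, which corrects background by base composition, normalizes arrays and summarises probe sets, and affy are named in the submitters' processing notes, with no versions. The deposited values were taken as log2, inferred from the method and from their range of 1.02 to 14.24; the base, and which arrays were normalized together, are not stated. Per the labels' protocols RNA was taken up in Trizol LS, and amplified, biotin-labelled cDNA was made with NuGEN Ovation kits. The table holds 22690 probe sets; 64 controls, 691 with several genes and 1555 unnamed ones were left out. Symbols come from the platform table, and all 42 members' Entrez IDs gave the same RefSeq symbol (GRCm38.p6). The files name no build. The members and lists were chosen with earlier results of these data known. Genes are named by rank: the 6 lowest and 6 highest differences, the 3 highest and 3 lowest means, the 6 widest probe set ranges, the genes the rule names and those under the level; other examples are marked. Alternatives were level limits of 4 or 7 or none, other probe set choices, a fold limit of 2, and 4 scalings (loess span 0.3). No model was fitted. On simulated data only the recovery of large added changes past 2-fold was checked, with noise far under the spread between probe sets here. The scalings and the subunit and suffix comparisons were not checked in that way. The software was statsmodels 0.14.6, pandas 2.3.3, numpy 2.4.6 and matplotlib 3.10.9 under Python 3.11.15.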

Additional observations from a re-analysis of the deposited data

How the results depend on the processing

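With 1 array per group no replicate could be left out, and no paired analysis was possible because each group has 1 sample. The median of the ribosomal protein genes was -0.37 as deposited, -0.275 on plain probe sets only (18 genes), -0.205 centred on the median gene, -0.25 after loess, -0.21 after quantile normalization and 0.43 centred on the hybridization controls; level limits and the other probe set choices left it between -0.41 and -0.34. The count lower by 1.5-fold, 8 as deposited, was 4 on plain probe sets, 1 with median centring, 0 with control centring, 5 after loess, 4 after quantile normalization, 0 at a limit of 2-fold and 31 of 134 entries with probe sets of several genes added. The count higher, 0 as deposited, was 1 with median centring, 14 with control centring (35.9%, beside 52.8% of all genes and 60.6% of those with a mean of at least 11) and 1 after loess. Large minus small, -0.18, was 0.005 without _x_at and _s_at, 0.235 on second probe sets and 0 with probe sets of several genes added. Suffixed minus plain, -0.16, was -0.25 within genes, -0.045 with _a_at counted as plain, -0.0301 after loess, -0.03 after quantile normalization and -0.23 at a mean of at least 11. Under control centring Rpl41 (0.11), Rplp2 (0.16), Rps2 (0.10), Rps26 (0.09) and Rps7 (0.10) turned positive, by construction, since it adds 0.80. That shift comes from dim and bright controls together, and one from bright controls alone was not tried. Second probe sets, probe sets of several genes and the limit of 11 were added after the data were seen. Of 80 values of named genes under other probe set choices, loess or quantile normalization, 57 changed at all, 12 of them by at least the spread between members' probe sets. The causes of the other changes were not tested.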

Other observations

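Probe sets whose annotation lists a ribosomal protein gene among several genes were kept out of the results, and their genes are not named. Of 102 such probe sets, 95 had a mean of at least 5. Their median difference was -0.36 with 71 below 0, close to the -0.35 of the 83 member probe sets. The 76 suffixed ones had a median of -0.415 and ran from -1.06 to 1.16, and the 19 plain ones had a median of -0.23, a mean of 0.28 and a range from -1.08 to 3.50. Median and mean of the plain ones thus differ in sign, since 3 of them were 2-fold higher or more and 1 was 2-fold lower. The single pseudogene with a probe set of its own, Rps15a-ps6, read 6.82 in the hybridized and 4.39 in the live sample.

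Ribosomal RNA of the small subunit was measured by 3 control probe sets for the 18S rRNA, although the labels give polyA RNA as the molecule. They read 4.98, 7.88 and 11.29 in the hybridized sample at the 3′ end, the 5′ end and the middle, and 6.60, 9.26 and 12.49 in the live sample in that order. The differences were -1.62, -1.38 and -1.20. The first and second of these lay below the lowest hybridization control, at -1.22, and each of the 3 lay below that of every member gene at the level.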
